A study of Drosophila melanogaster with 3 samples.

Results

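The regions described here are 706 peaks of Ets65A-eGFP, each with its summit within 500 bp of annotated transcription start sites (TSSs) of 2 or more protein-coding genes. They made up 25.4% of the authors' dm6 list of peaks thresholded on reproducibility (IDR, irreproducible discovery rate), in which 1642 summits lay within 500 bp of any such TSS on arms X, 2L, 2R, 3L, 3R and 4 and 1138 did not. The other 936 promoter peaks lay near the TSSs of 1 gene and serve as the comparison. The peaks came from chromatin immunoprecipitation and sequencing of whole Drosophila melanogaster embryos, 0 to 24 h old and of mixed sex, from a transgenic line (strain ets3-GFP) that stably expresses Ets65A with GFP at its C-terminus. The precipitation used an antibody against GFP, although the antibody label names Ets65A. All libraries formed 1 group with 3 biological replicates of 1 technical replicate each, with no untreated or untagged group, so the replicates were the only independent samples. Whole embryos mix all tissues and many stages, and the line carries a tagged protein, so the peaks give an average over cells and not the binding of the untagged protein in 1 tissue.

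Ets65A belongs to the ETS family of transcription factors, which bind DNA through a winged helix-turn-helix domain that recognises a GGAA core. In the compact Drosophila genome many genes start back to back on opposite strands, so that a short stretch of DNA lies upstream of both and serves as a bidirectional promoter. Such head-to-head promoters are known in flies for housekeeping genes and for the DNA replication-related element (DRE), which is bound by DREF, for the shorter CGATA site of the boundary factor BEAF-32, and for the element bound by the zinc-finger protein M1BP.

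Sequences of 8 members, taken from the 12 strongest and from the strongest with a DRE or M1BP element, are shown because their DNA between the TSSs carries, or lacks, these elements around the summit. Each is the plus strand of the dm6 assembly, as deposited in RefSeq, and lies between the TSSs of a divergent pair and outside annotated exons. The summit falls inside each printed stretch. Capitals mark every match on either strand to the DRE (TATCGATA), the BEAF-32 site (CGATA, read as TATCG on the other strand), the M1BP element (GGTCACAC, read as GTGTGACC on the other strand) and the ETS core (CCGGAA) or ETS consensus, and a DRE always contains 2 overlapping BEAF-32 sites. The member between mRpS23 and CenG1A (chr2L:13835264-13835563, summit at base 187) has a DRE near its left end, more than 100 bp from the summit. The member between Atat and Shc (chr3L:9426759-9427009, summit at base 142) has a DRE and a separate BEAF-32 site. CG7601 and CIA30 (chr3R:29736746-29736964, summit at base 98) and Art3 and mRpS10 (chr3R:15229409-15229664, summit at base 88) have 1 BEAF-32 site each, and RpS27 and Nup37 (chr3R:25247515-25247657, summit at base 29) have none of these elements. CG34290 and Uck (chr3R:24289872-24290171, summit at base 249) combine a DRE with an ETS core, RpS25 and CG4820 (chr3R:11216288-11216534, summit at base 61) have a DRE next to the summit, and Ire1 and Mrm2 (chr3R:19861292-19861591, summit at base 150) have an M1BP element.
mRpS23-CenG1A: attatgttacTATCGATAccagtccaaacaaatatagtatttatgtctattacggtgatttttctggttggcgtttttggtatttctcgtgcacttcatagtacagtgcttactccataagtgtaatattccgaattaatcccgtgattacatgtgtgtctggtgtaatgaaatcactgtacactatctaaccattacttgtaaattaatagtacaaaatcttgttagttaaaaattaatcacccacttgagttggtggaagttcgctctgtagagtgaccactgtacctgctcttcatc
Atat-Shc: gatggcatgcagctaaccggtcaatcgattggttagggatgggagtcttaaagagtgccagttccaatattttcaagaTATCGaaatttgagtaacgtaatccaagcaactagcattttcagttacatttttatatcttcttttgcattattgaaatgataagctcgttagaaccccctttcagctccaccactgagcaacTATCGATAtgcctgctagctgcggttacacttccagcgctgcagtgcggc
CG7601-CIA30: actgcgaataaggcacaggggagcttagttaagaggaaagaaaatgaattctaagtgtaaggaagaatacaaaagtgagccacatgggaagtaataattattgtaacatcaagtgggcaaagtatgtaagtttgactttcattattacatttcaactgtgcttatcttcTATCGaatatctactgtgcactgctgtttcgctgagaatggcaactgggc
Art3-mRpS10: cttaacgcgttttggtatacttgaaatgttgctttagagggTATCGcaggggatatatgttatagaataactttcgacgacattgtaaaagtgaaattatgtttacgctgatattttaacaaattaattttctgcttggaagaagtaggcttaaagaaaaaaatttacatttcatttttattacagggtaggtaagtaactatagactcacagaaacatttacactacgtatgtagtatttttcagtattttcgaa
RpS27-Nup37: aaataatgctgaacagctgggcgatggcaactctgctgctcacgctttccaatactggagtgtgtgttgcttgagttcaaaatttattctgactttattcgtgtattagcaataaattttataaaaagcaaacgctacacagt
CG34290-Uck: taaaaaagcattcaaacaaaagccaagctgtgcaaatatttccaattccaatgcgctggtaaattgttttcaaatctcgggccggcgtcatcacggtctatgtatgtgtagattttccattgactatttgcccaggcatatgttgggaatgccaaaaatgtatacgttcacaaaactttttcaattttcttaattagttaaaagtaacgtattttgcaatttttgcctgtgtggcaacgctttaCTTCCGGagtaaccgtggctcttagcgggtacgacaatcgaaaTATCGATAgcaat
RpS25-CG4820: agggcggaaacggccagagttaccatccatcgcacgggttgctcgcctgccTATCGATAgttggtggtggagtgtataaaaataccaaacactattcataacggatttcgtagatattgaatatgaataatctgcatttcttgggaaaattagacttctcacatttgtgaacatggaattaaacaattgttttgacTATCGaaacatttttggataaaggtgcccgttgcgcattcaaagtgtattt
Ire1-Mrm2: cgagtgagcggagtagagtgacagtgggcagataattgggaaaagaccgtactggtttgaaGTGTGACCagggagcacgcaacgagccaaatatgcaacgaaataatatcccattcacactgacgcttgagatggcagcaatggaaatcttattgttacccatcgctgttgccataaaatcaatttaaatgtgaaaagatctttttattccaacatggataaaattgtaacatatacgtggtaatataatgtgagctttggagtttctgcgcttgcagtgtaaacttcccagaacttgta

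Shared promoters held 43.0% of the promoter peaks (706 of 1642, 95% Wilson interval 40.6 to 45.4%) but 12.9% of the bases within 500 bp of a TSS (1984667 of 15333076). This corresponded to 356 peaks per megabase of shared promoter against 70.1 per megabase of promoter of 1 gene. The same held in every replicate, taking from each list as many of its strongest peaks as there are reproducible peaks: the shared fraction of promoter summits was 43.5% in replicate 1, 40.9% in replicate 2 and 38.4% in replicate 3. The mean excess over the base share was 28.0 ± 2.57 percentage points (SD, n = 3), positive in 3 of 3 replicates, with p = 0.25 in the exact sign-flip permutation test (two-sided), which is the smallest value that 3 replicates allow; no comparison over replicates here can therefore reach 0.05. Both the density and the excess compare bases that lie differently around TSSs, and the part of position in them was not tested. Summits at promoters of 1 gene were upstream of the TSS in 85.9% of cases. Of the positions within 500 bp of both TSSs of divergent members, 43.2% lie between them. Intervals cover the counting error of peaks or genes alone, because the lists hold no read counts and the sequencing depth behind them is unknown.

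Ordered by the authors' signal value, the excess was present throughout the reproducible peaks and smaller below them. Among promoter peaks ranked 1 to 500 in the pooled list, 43.3% lay at shared promoters (142 of 328), followed by 46.0%, 48.0%, 40.2% and 39.1% in the next 4 classes down to the last reproducible peak. The share was 33.7% at ranks 2781 to 5000, 24.9% at 5001 to 10000 and 16.1% (14.9 to 17.3%) at 10001 to 28940. The intervals of the first 5 classes overlapped one another, and those of the last 3 lay apart in descending order. The lowest −log10 q was 0.0177 in the pooled list and 3.23 in the reproducible list, so the weakest class contains calls of low confidence.

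**Figure D1:**
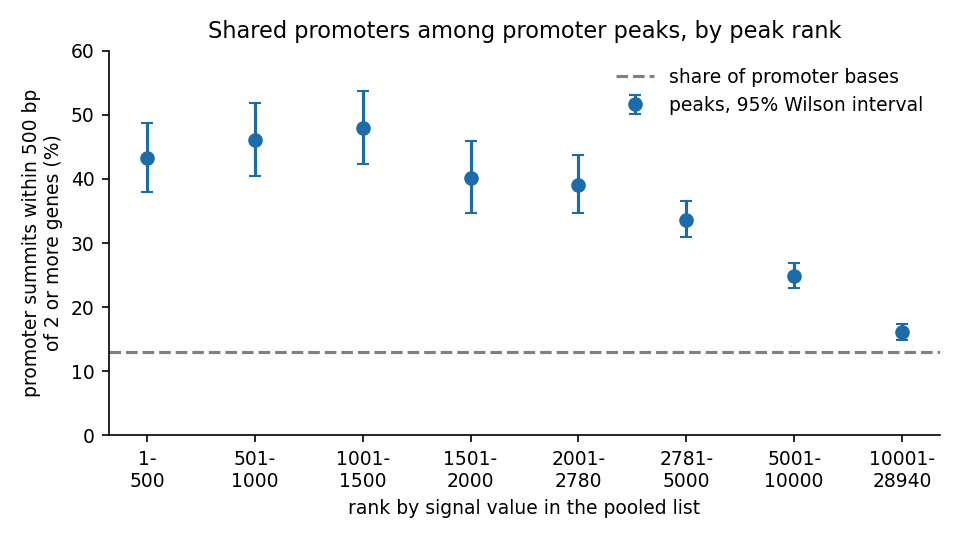
Percentage of promoter summits that lie within 500 bp of 2 or more genes (vertical axis), by rank in the pooled peak list (horizontal axis), with 95% Wilson intervals over peaks; the dashed line is the 12.9% of promoter bases that are shared. The share stays between 39.1% and 48.0% for the reproducible peaks and is 16.1% in the weakest class.

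Most members lay at divergent pairs, in which the gene on the minus strand starts to the left and the gene on the plus strand to the right. Of the 671 members with exactly 2 genes, 637 (94.9%, 93.0 to 96.4%) were divergent, whereas 80.7% of the bases with exactly 2 genes were. A further 25 lay at pairs on the same strand and 9 at pairs that overlap head to head, with the start of each gene inside the other. Per megabase of each kind of promoter there were 420 peaks at divergent pairs, 128 at overlapping pairs and 85.3 at same-strand pairs, the last of which was close to the 70.1 at promoters of 1 gene. In the replicates 95.5%, 95.0% and 95.2% of summits near exactly 2 genes were at divergent pairs, 14.5 ± 0.254 percentage points (SD, n = 3) above the base share (exact sign-flip permutation p = 0.25, 3 of 3 replicates). With genes of identical start counted once, the excess was 7.72 points.

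The other orientations held few members, and many of those had genes with the same annotated start. In 21 of the 25 same-strand members the genes were annotated with an identical start, as in the strongest 3, Sesn and CG46429 (signal value 351), CG8788 and CG44286 (342) and fray and CG7694 (279). Sesn encodes sestrin, a stress-responsive regulator of TOR signalling, and fray a kinase related to mammalian SPAK and OSR1. The strongest overlapping pairs were Adck1 and CG4741 (376), Cyt-c-d and CG31808 (212), and ver and Gcn5 (181); Cyt-c-d encodes a cytochrome c, ver a telomere-capping protein and Gcn5 a histone acetyltransferase. Among the 35 members with 3 or more genes, 31 had genes with an identical start. The 31 members with 3 genes included Dph4, Spec2 and RpL13A (275), 2 members had 4 genes, and 1 had 5 (PIG-M, CG42379, CG42380, CG42381 and NC2alpha, 238). A single member with 10 annotated genes (226) held only fragments of the trans-spliced mod(mdg4) locus, which the annotation lists as separate pre-mod(mdg4) genes.

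Counted over gene pairs whose TSSs lie at most 1000 bp apart, 25.5% of 2615 divergent pairs had a reproducible summit within 500 bp of both TSSs (666 pairs). The corresponding values were 20% for overlapping pairs (21 of 105, 13.5 to 28.6%) and 11.6% for same-strand pairs (93 of 800, 9.59 to 14.0%). With the strongest peaks of each replicate, the percentage was 24.0 ± 0.685 (SD, n = 3) for divergent, 18.4 ± 1.10 for overlapping and 11.3 ± 0.260 for same-strand pairs. Divergent pairs were above same-strand pairs in each replicate, by more than the spread between replicates. The same pairs were scored in every replicate, so this spread describes the repeatability of peak calls and not the uncertainty over pairs. Because pairs with an identical start on one strand count in the last class, a summit there can be at a single physical promoter.

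Binding of divergent pairs varied with the distance between their TSSs. A summit was present at 28.2% of pairs 1 to 100 bp apart (118 of 419) and 27.4% of those 101 to 200 bp apart (97 of 354), at 38.8% of those 201 to 300 bp apart (205 of 529) and 35.8% of those 301 to 400 bp apart (141 of 394). It was present at 20.8% of pairs 401 to 600 bp apart and 1.97% of those 601 to 1000 bp apart, but the stretch within 500 bp of both TSSs narrows as the spacing grows, so the decline at long spacings is in part set by the definition. The replicates gave 37.2 ± 0.500% (SD, n = 3) at 201 to 300 bp and 24.8 ± 1.98% at 101 to 200 bp, with no overlap between them. Here too the same pairs were scored in every replicate. Divergent members had a median spacing of 278 bp (interquartile range 197 to 372, from 6 to 717 bp).

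**Figure D2:**
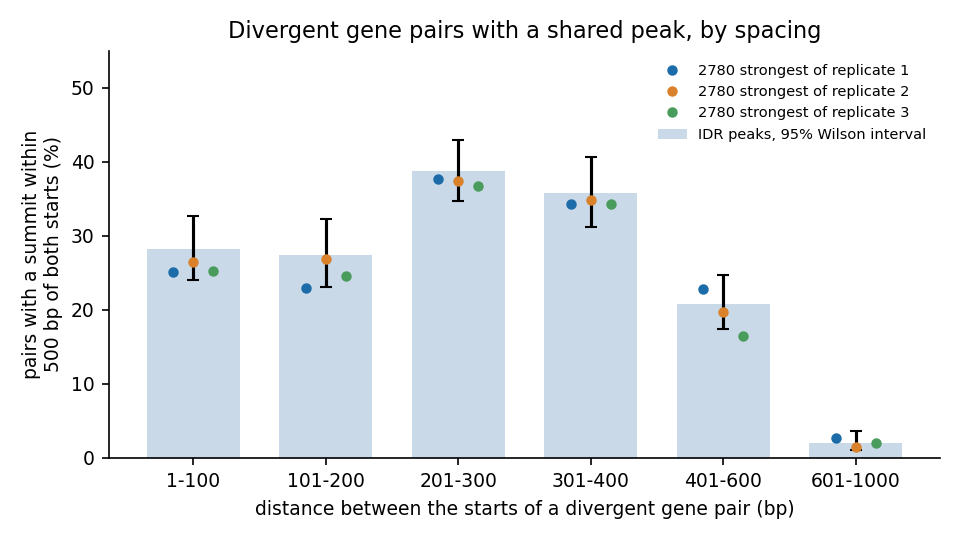
Percentage of divergent gene pairs with a summit within 500 bp of both TSSs (vertical axis), by the distance between the TSSs in bp (horizontal axis). Bars are the reproducible peaks with 95% Wilson intervals over pairs, and points are an equal number of strongest peaks of each replicate; all 3 replicates are highest at 201 to 300 bp, with a mean of 37.2%.

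Summits were concentrated between the TSSs of divergent pairs, that is, upstream of both genes. This was the case for 546 of 637 divergent members (85.7%, 82.8 to 88.2%), while 43.2% of the positions within 500 bp of both TSSs lie between them. Replicate summits over the same members were between the TSSs in 83.1%, 82.7% and 81.2% of cases, which exceeded the share of positions by 39.7 ± 0.965 percentage points (SD, n = 3; exact sign-flip permutation p = 0.25, 3 of 3 replicates). These are the same members seen in each list. With a promoter distance of 250 bp the excess was 13.8 points. Summits at promoters of 1 gene were upstream of the TSS in 85.9% of cases (804 of 936). Of the 546 summits between the TSSs, 300 were in the central part of the interval, from 0.25 to 0.75 of its length, and 246 nearer to an end. Another 52 lay to the left of the minus-strand TSS and 39 to the right of the plus-strand TSS.

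**Figure D3:**
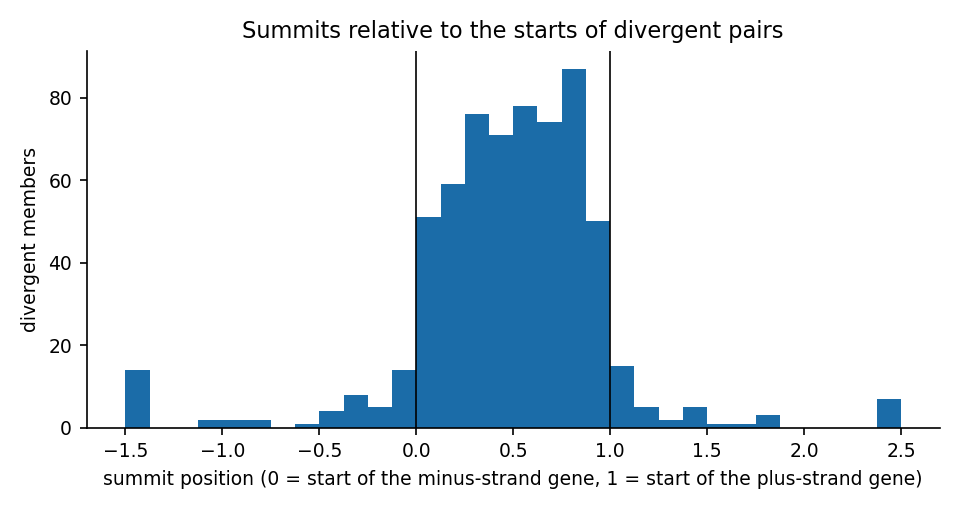
Number of divergent members (vertical axis) by position of the summit, scaled so that 0 is the TSS of the minus-strand gene and 1 that of the plus-strand gene (horizontal axis), in bins of 0.125. The 546 summits between the black lines are spread over the whole interval, and the 19 members beyond −1.5 or 2.5 are counted in the outermost bins.

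The nearer TSS was at a median of 65 bp from the summit of divergent members and the farther at 208 bp. Within 100 bp of the nearer TSS were 72.8% of all members (514), against 42.3% of peaks at promoters of 1 gene, whose median distance was 121 bp. The nearer of several TSSs is closer than a single one by construction, so these distances are a description. At the limit of the rule, 26 members had their second gene 451 to 500 bp from the summit, with a median signal value of 103. Just outside it, 22 peaks had a second gene 501 to 550 bp away and a median of 88.8.

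The signal value, a score that the authors gave each peak on a scale that is not stated, covered 71.8 to 1066 over the members, with a median of 116 (interquartile range 90.1 to 168). The median was 110 at promoters of 1 gene. In replicate 1 the median was 34.6 at members and 30.4 at promoters of 1 gene, in replicate 2 it was 48.6 and 44.7, and in replicate 3 it was 39.6 and 40.8. On the log2 scale the mean difference was 0.09 ± 0.12 (SD, n = 3), with the order turned around in replicate 3 (exact sign-flip permutation p = 0.5) and a difference of 0.15 without replicate 3 and 0.04 without replicate 1. The difference in strength was thus within the spread between replicates, unlike the difference in number.

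Members were among the equally many strongest peaks of replicate 1 in 82.9% of cases, of replicate 2 in 88.7% and of replicate 3 in 82.3%, against a background over all reproducible peaks of 77.5%, 86.9% and 81.4%. The reproducible list was made from these same replicates, so high percentages are in part set by the selection. The percentages at promoters of 1 gene were 75.5, 86.8 and 83.4, so that the difference of 2.70 ± 4.29 percentage points (SD, n = 3) was smaller than its spread and had the other sign in replicate 3 (exact sign-flip permutation p = 0.5). Without replicate 1 it was 0.385 points and without replicate 3 it was 4.62. In all 3 replicates together, 458 members (64.9%, 61.3 to 68.3%) were among the strongest, against 58.5% (55.4 to 61.7%) of peaks at promoters of 1 gene and 59.4% of all reproducible peaks. The median rank was 1069 in replicate 1, 1180 in replicate 2 and 1378.5 in replicate 3. Spearman's rho of the ranks was 0.747 between replicates 1 and 2 (697 members with a peak in each), 0.616 between 1 and 3 (695) and 0.672 between 2 and 3 (704), over members that share their libraries, as a description. The 706 members covered 658 distinct sets of genes, 48 of which had 2 peaks, and 94 members shared their replicate peak with another member in at least 1 replicate.

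**Figure D4:**
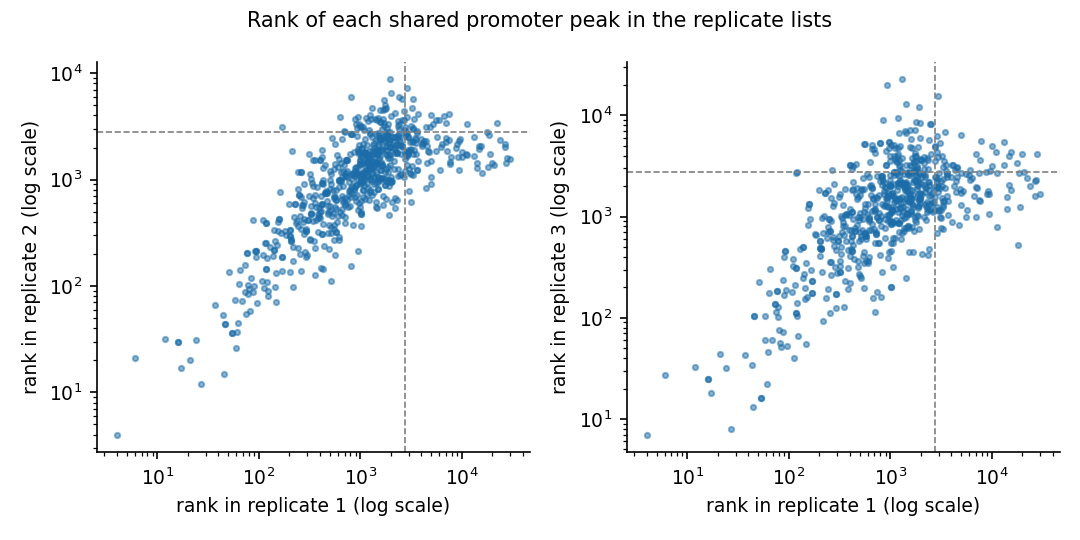
Rank of each member in the list of replicate 1 (horizontal axes, log scale) against replicate 2 (left) and replicate 3 (right; vertical axes, log scale), 1 point per member, with dashed lines at the rank that equals the number of reproducible peaks. The strongest members keep high ranks in all lists, and a group of points to the right of the line ranks low in replicate 1 alone.

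Among members of high rank, 22 were among the 100 strongest peaks of every replicate. The strongest was between Chro and Ssl1 on arm 3L (chr3L:22878706-22879102), with a signal value of 1066 and replicate signal values of 331, 446 and 289, which ranked it at 4, 4 and 7. Chro encodes Chromator, a chromodomain protein of decondensed interband chromatin and the mitotic spindle, and Ssl1 a subunit of the general transcription factor TFIIH. Its summit lay between the TSSs, 101 bp from that of Chro and 220 bp from that of Ssl1.

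The next 3 members combined genes of different roles. The member of mRpS23, a mitochondrial ribosomal protein gene, and CenG1A, which encodes an Arf GTPase-activating protein, had replicate signal values of 185, 312 and 284, lowest in replicate 1. The member of Atat, the alpha-tubulin acetyltransferase, and Shc, an adaptor of receptor tyrosine kinases, had values of 313, 260 and 194, highest in replicate 1. CG7601 and CIA30, an assembly factor of mitochondrial complex I, had 223, 269 and 224. These members ranked between 6 and 27 in every replicate, although the order among them changed from one list to another.

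Ranks 5 to 12 among the members were held by Fbw5 and CG9147 (signal value 697), CG5757 and CG5098 (668), RpS27 and Nup37 (663), Pdrg1 and Pal1 (656), mRpL23 and CG9004 (616), Art3 and mRpS10 (594), tank and CG12194 (553), and Ripalpha and RpL7 (542). All 12 strongest members were divergent, and in 9 of them the summit lay between the TSSs. The exceptions were mRpL23 and CG9004, tank and CG12194, and Ripalpha and RpL7. In Ripalpha, which encodes a replication protein A interacting protein, and RpL7 the TSSs were 30 bp apart, and the summit was 20 bp inside RpL7.

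At the other end of the list, the lowest members were CG17597 and ScpX (71.9), Smyd5 and Oga (71.9), and Miro and spas (71.8). ScpX encodes a sterol carrier protein, Oga the enzyme that removes O-GlcNAc from proteins, Miro a mitochondrial GTPase and spas the microtubule-severing spastin. The rank spread between replicates had a median of 922, exceeded 10000 in 27 members, and 11 members had no overlapping peak in a replicate (9 in replicate 1, 0 in replicate 2 and 2 in replicate 3). For replicate 1 this was 1.27% of members, against 4.27% of peaks at promoters of 1 gene and 2.41% of all reproducible peaks. The 5 widest spreads, CG33228 and Pof, kud and Zcchc7, CG7997 and Nup62, Strip and Gtpx, and Smyd5 and Oga, all came from low ranks in replicate 1. The member of CG33228 and Pof, the latter encoding a protein that coats the fourth chromosome, ranked 29971 in replicate 1, 1575 in replicate 2 and 1676 in replicate 3, with signal values of 8.06, 41.2 and 36.2.

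Members differed from promoters of 1 gene in several short motifs within 100 bp of the summit. The DRE was found in 12.01% of member windows and 7.28% of windows at promoters of 1 gene over the replicates, a difference of 4.73 ± 0.0733 percentage points (SD, n = 3). The BEAF-32 site was found in 49.3% and 38.5% (difference 10.8 ± 0.742) and the E-box CAGCTG in 19.1% and 12.1% (difference 7.02 ± 0.366). The TATA box TATAAA was in 33.8% and 24.96% (difference 8.83 ± 0.961) and the M1BP element in 6.79% and 5.46% (difference 1.32 ± 0.430). The GAGA site GAGAG, bound by the GAGA factor, was less frequent at members, with 14.0% against 25.0% (difference −11.0 ± 1.37), as was the sequence of the TCT initiator of translation genes (YYCTTTYY, with Y for C or T), with 17.0% against 22.4% (difference −5.39 ± 0.621). A match counted anywhere in the window and on either strand, so TATAAA and YYCTTTYY matches were not tied to a position at a TSS. For each of these 7 motifs all 3 replicates had the same direction and the exact sign-flip permutation p was 0.25 (0.281 after adjustment over 9 motifs). The windows of the replicates cover nearly the same DNA, since the same peaks are only centred anew on each replicate's summit, so the shared direction and the SDs describe the placement of summits and are not independent support for the motif differences. With only the outermost TSS of each gene the difference was 2.48 points for the DRE, 5.45 for the BEAF-32 site and 0.0292 for the M1BP element. With a promoter distance of 250 bp it was 2.73 for the DRE, 6.59 for the BEAF-32 site and −5.36 for the GAGA site, and the M1BP difference changed sign (−0.686).

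The ETS motifs did not follow this pattern. The core CCGGAA was in 6.55 ± 0.853% of member windows and 6.81 ± 0.0945% of windows at promoters of 1 gene (SD, n = 3), a difference of −0.26 ± 0.76 points with the higher value at members in replicate 3 (exact sign-flip permutation p = 0.75, also after adjustment). This difference moved in both directions with the settings: it was −4.73 points with a promoter distance of 250 bp and −1.53 in the upper part of the lists by rank, but 1.00 with a distance of 1000 bp and 1.92 with a window of 200 bp on each side. The ETS consensus CMGGAAR, with M for A or C and R for A or G, was in 7.59% and 8.87%, a difference of −1.28 ± 0.746 points (exact sign-flip permutation p = 0.25, adjusted 0.281). It was −3.35 points at 250 bp and −2.99 in the upper part of the lists. A CCGGAA was within 100 bp of 46 member summits (6.52%), of which 17 were within 25 bp.

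**Figure D5:**
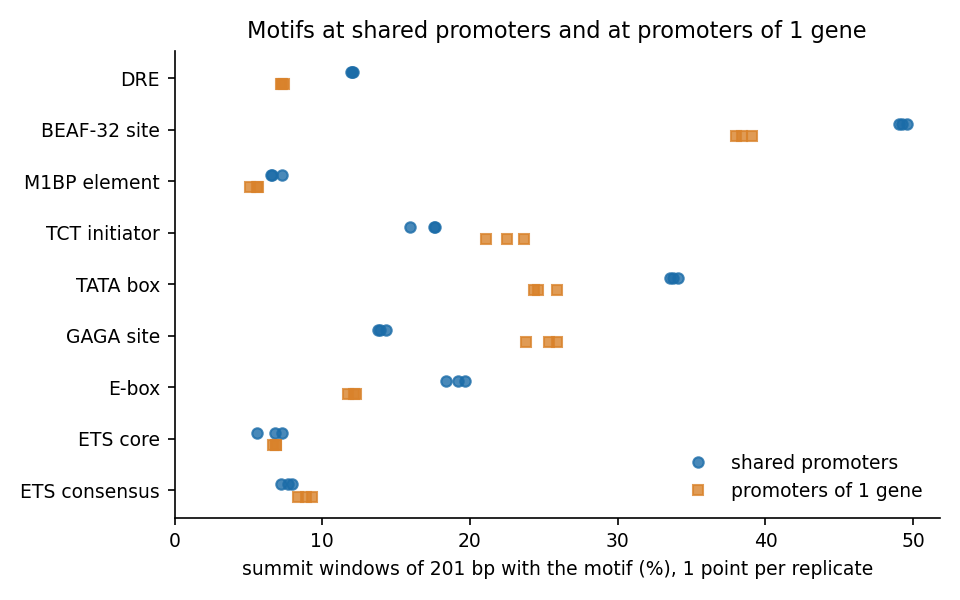
Percentage of windows of 201 bp centred on the replicate summit that contain each motif on either strand (horizontal axis), for members (circles) and peaks at promoters of 1 gene (squares), 1 point per replicate. The circles and squares overlap for the ETS core and for no other of the 9 motifs.

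The same motifs were counted at other promoters to give their general frequency. At the TSSs of all 13945 genes, windows of the same length held a DRE in 7.84%, a BEAF-32 site in 39.4%, an M1BP element in 6.76%, a TCT initiator in 16.6%, a TATA box in 29.2%, a GAGA site in 22.5%, an E-box in 13.8%, an ETS core in 5.94% and an ETS consensus in 7.52%. Divergent pairs without a peak give a comparison closer in base composition, because midpoints between TSSs are richer in A and T. Mean GC content was 34.0% at unbound and 33.9% at bound midpoints, 37.2% at member summits and 39.3% at summits of 1 gene. Bound and unbound pairs differed in spacing, with a median of 260 bp and 333 bp, so unbound midpoints lay farther from the TSSs in the median. Of the pairs 601 to 1000 bp apart, 9 of 458 were bound. At the midpoints of bound against unbound divergent pairs the DRE was found in 10.8% and 7.80%, the BEAF-32 site in 44.1% and 40.1%, the TATA box in 38.9% and 40.2%, the TCT initiator in 15.5% and 16.2%, the ETS consensus in 6.01% and 6.31%, the GAGA site in 15.2% and 14.2%, the E-box in 13.2% and 12.5%, the M1BP element in 4.65% and 5.70% and the ETS core in 4.05% and 3.90%. Bound and unbound midpoints thus lay closer together than members and promoters of 1 gene for the DRE, the BEAF-32 site, the TCT initiator, the E-box and the ETS consensus, and their order was the other way around for the TATA box, the GAGA site, the M1BP element and the ETS core. Member summits also lay nearer to a TSS, at a median of 65 bp against 121 bp at promoters of 1 gene. The parts of base composition and of this distance in the motif differences were not tested, nor was the part of spacing in the comparison of midpoints.

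A DRE or an M1BP element was present near 133 member summits (18.8%), and both near 4. The median distance of a DRE from the summit was 34.5 bp over the 85 members that had one. The median signal value was 114.7 with a DRE and 116 without, and 99.4 with an M1BP element and 118 without, so the medians of members with either element were not above those without. Examples with a DRE are those of Atat and Shc, CG34290 and Uck (replicate signal values 60.9, 128 and 114) and RpS25 and CG4820 (57.0, 122 and 89.6), whose sequences are printed above, each lowest in replicate 1 except Atat and Shc. Ire1, the sensor of the unfolded protein response, and Mrm2, a mitochondrial rRNA methyltransferase, had 68.0, 68.4 and 57.7 and an M1BP element.

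The members held TSSs of 1357 different genes, 9.73% of the 13945 protein-coding genes, while 15.8% had a reproducible summit within 500 bp at any promoter (2200). Peaks of 1 gene held 873 genes, and 30 genes were at both kinds of peak. A summit near a gene whose neighbour starts close by is classed as shared, so this overlap is in part set by the rule. Of 4958 genes with a divergent neighbour starting within 1000 bp, 29.1% (27.8 to 30.4%) were bound, against 10.6% of 1027 genes with a neighbour in another orientation only and 8.15% (7.57 to 8.77%) of 7960 genes with no such neighbour. A gene with a close neighbour also counts when the summit is nearer to the neighbour, so the first value is in part set by the counting.

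Genes for protein synthesis were at members in differing shares, read here beside the 9.73% of all genes and the 22.7% of all genes with a neighbour starting within 1000 bp. Of 86 cytoplasmic ribosomal protein genes 29 were at a member (33.7%, and 52.7% of those with such a neighbour) and 32 at a peak of 1 gene. At either kind of peak were 61 of these genes (70.9%, against 15.8% of all genes), so a high share was not particular to members. Their members included RpS27 and Nup37 (663), Ripalpha and RpL7 (542), Nelf-E, a subunit of the negative elongation factor, and RpL14 (403), and RpL41 and the sodium channel gene NaCP60E (346). In the 31 of these members that had 2 genes the summit was at a median of 58 bp from the TSS of the ribosomal protein gene and 198 bp from that of its partner, and nearer to the ribosomal protein gene in 24. Mitochondrial ribosomal protein genes were at members in 19 of 75 cases (31.1% of those with a neighbour) and at a peak of 1 gene in 2, and there the summit was nearer to the listed gene in 8 of 18 members. Aminoacyl-tRNA synthetase genes were at members in 11 of 33 cases, led by SerRS and CG17260 (254) and ArgRS and CG8578 (182), or 44% of those with a neighbour. Translation factor genes were at members in 8 of 61 cases (13.1%, and 25% of those with a neighbour), near the shares of all genes, and were led by eIF1, which shares its promoter with RpL28 (208), and eIF4EHP (191).

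Members also held genes of other basic processes, with counts read beside the 9.73% of all genes that were at members. Among genes with a neighbour starting within 1000 bp, where the share of all genes was 22.7%, it was 32.7% for vesicle traffic, 30.8% for the proteasome, 28.3% for the RNA polymerase II machinery, 28% for the nuclear pore and transport, 27.3% for oxidative phosphorylation, 27.03% for the cell cycle and replication, 19.4% for splicing and 16.7% for mitochondrial protein import. There were 15 of 73 genes of the RNA polymerase II machinery (Ssl1, MED30 with Rev1 at 341, Polr2H with CG11247 at 337, MED27 with elm at 283), 17 of 83 of vesicle traffic (Vps33B with the protease gene Fur1 at 414, Vps36 with Liprin-beta at 216) and 15 of 93 of oxidative phosphorylation (ND-ASHI with Fum1 at 240, ND-MWFE with TppII at 234). There were 10 of 55 cell cycle and replication genes (Dp with Fsn at 174, dup with SRPK at 148), 8 of 48 proteasome genes (Rpn5 with Hat1 at 219), 7 of 40 splicing genes (SNRPG with mthl1 at 169), 7 of 29 genes of the nuclear pore and nuclear transport (Nup98-96 with mbc at 155, Nup160 with Csl4 at 151) and 1 of 15 of mitochondrial protein import (Tom7). All 7 bound nuclear pore and transport genes were at members, as were 61.7% of all bound genes, and 25 of the 29 listed genes had a close neighbour. At either kind of peak were 30.9% of the cell cycle, 28.8% of the RNA polymerase II, 27.7% of the vesicle traffic and 24.1% of the nuclear pore genes. For splicing it was 20%, for the proteasome 18.8%, for oxidative phosphorylation 18.3% and for mitochondrial protein import 6.67%, against 15.8% of all genes. Apart from mitochondrial protein import, shares above that of all genes were thus not particular to members.

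Of 15 genes for insulator and promoter-architecture proteins 5 were at members (33.3%, and 45.5% of those with a neighbour starting within 1000 bp). These were Chro, Cp190 (an insulator cofactor, with CG4338 at 219), pzg (a partner of DREF, with CG12974 at 170), Dref itself, which shares its promoter with RpL13 (153), and M1BP (with CG8202 at 80.1), the last being named here because the list is short. For all genes the shares at members were 9.73% and 22.7%. Another 4 of the listed genes were at promoter peaks that were not shared. At either kind of peak were 9 of the 15 genes (60%, against 15.8% of all genes). A high share was thus not particular to members. The Dref member had replicate signal values of 39.0, 63.1 and 47.9 and ranked between 689 and 950. The M1BP member had values of 10.6, 48.8 and 21.7 and ranked 15635, 1164 and 4304, so its strength differed widely between replicates.

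Few genes of the ETS family or of the lists of tissue-restricted function were at members, where 9.73% of all genes were. None of 8 ETS family genes, 28 Hox and segmentation genes, 24 pan-neuronal genes and 121 cuticle protein genes was at a member. There was 1 of 30 axon guidance genes (dock, an SH2 and SH3 adaptor, with CG3862 at 106), 1 of 24 mesoderm and muscle genes (mbc, a myoblast fusion gene, with Nup98-96) and 2 of 179 chemoreceptor genes (Ir60e with CG13585 at 118 and the carbon dioxide receptor gene Gr63a with Lamtor4 at 79.7). These lists also had few genes with a neighbour starting within 1000 bp, namely 1 of the ETS genes, 1 of the Hox and segmentation genes, 8 of the pan-neuronal, 5 of the axon guidance, 4 of the mesoderm and muscle, 15 of the cuticle and 35 of the chemoreceptor genes, against 55 of 86 ribosomal protein genes and 5985 of 13945 genes in all. Among genes with such a neighbour, 20% of the axon guidance genes and 25% of the mesoderm and muscle genes were at a member, close to the 22.7% of all genes, and 5.71% of the chemoreceptor genes were. At either kind of promoter peak were 25% of the ETS family, 20% of the axon guidance and 16.7% of the mesoderm and muscle genes. These shares were not below the 15.8% of all genes. Lower shares were found for pan-neuronal (4.17%), Hox and segmentation (3.57%), chemoreceptor (1.12%) and cuticle protein genes (0%). No member held 2 genes of the same list, and 160 members (22.7%) held a gene of any of the 20 lists.

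Along the chromosomes, members were most numerous on arm 3R (216), followed by 3L (146), 2L (143), 2R (132) and X (69), with 0 on arm 4. Of the promoter peaks, 50.1% were shared on 3R and 29.0% on X. Of divergent pairs, 17.3% (13.9 to 21.4%) were bound on X and 27.0% (25.2 to 28.9%) on the large autosomal arms. In the replicates these values were 18.5 ± 1.93% and 25.1 ± 0.679% (SD, n = 3), and X was below the pooled autosomal arms in each. The autosomal arms differed, with 32.5% of divergent pairs bound on 3R, 26.5% on 3L, 25.5% on 2L and 22.1% on 2R. Arm 2R was at 20.4 ± 1.18% over the replicates (SD, n = 3). It was below X in replicate 1 (19.4% against 20.7%) and above X in replicates 2 and 3. On arm 4 none of 11 divergent pairs was bound, which allows a share of up to 27.3% by the limit of 3 counts for a count of 0 (25.9% by the Wilson interval). In the strongest peaks of the replicates the value was 18.2% in replicate 1 and 0% in replicates 2 and 3.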

How the data were processed

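Peak lists were analysed from 3 biological replicates of 1 group, with a pooled and an IDR-thresholded list, all in the dm6 build. Per the file headers and notes, the authors called peaks for each replicate and for pooled reads against a control, which was not analysed here; aligner, caller and IDR cutoff were each not given in the sources used here. Per the labels' protocols chromatin was sonicated to fragments of 200 to 800 bp. Each deposited peak carries a signal value (a score), a q-value as −log10 q and a summit offset; q-values reached a ceiling, so peaks were ranked by the deposited score. Peaks in the deposited lists have no counts, so depth is unknown. The replicate lists hold 30000 peaks each (29998 of replicate 1 lie on the arms), the pooled list 28940.

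TSSs were 19607 transcript starts of 13945 protein-coding genes in Ensembl release 115 (BDGP6, the dm6 assembly). Orientation used the TSS of each gene nearest to the summit. An IDR peak was read in a replicate as the strongest peak overlapping it by at least 1 bp. Motifs were sought in 201 bp windows on both strands, against RefSeq sequence of the same assembly. Differences were tested over replicates by the exact sign-flip permutation test (two-sided), with Benjamini-Hochberg adjustment over 9 motifs; Wilson intervals are at 95%. Nothing in the labels says that the replicates came from separate parents, so p-values describe these samples only. With 3 replicates the test gives 0.25 whenever all 3 differences have the same sign, whatever their spread. Members and lists were chosen with earlier results of these data known, and a few wrongly assigned symbols were removed from the lists after values were seen; 11 listed symbols were not found. Genes named were the 12 strongest members, the strongest 3 per orientation, up to 4 per list, the 3 lowest and the 5 of widest rank spread, with further names marked as such. Alternatives changed the promoter distance, TSS set, summit, threshold, overlap, number of top peaks, motif window and replicates. The functions were tested on simulated data. Python 3.11.15, NumPy 2.4.6, pandas 2.3.3, SciPy 1.17.1 and matplotlib 3.10.9 were used.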

Additional observations from a re-analysis of the deposited data

How the results depend on the processing

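Over 14 results and 148 alternatives, 143 values kept the direction reported and 5 did not. The share of promoter peaks at shared promoters stayed 22.5 to 30.6 percentage points above the base share, the divergent share 7.72 to 19.2 points above and the share of summits between divergent TSSs 13.8 to 56.6 points above. The signal difference was −0.0498 (log2) in the upper part of the lists, split at the median rank, and the support difference ranged from 0.385 to 4.62 points. The M1BP difference was −0.686 points with a promoter distance of 250 bp. The ETS core difference was 1.00 points with a distance of 1000 bp, 1.92 points with 200 bp on each side of the summit, and ranged from −0.58 to 0.162 points when each replicate was left out in turn; without replicate 1 it was 0.162. The other 7 motif differences kept their sign under all alternatives run, including each left-out replicate. The cause of these reversals was not tested. No paired analysis was possible between groups because the samples form a single group; the differences tested are each taken within a replicate. Without read counts, the precision that depth allows is unknown.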
